A study of Mus musculus with 2 samples.

Results

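The peaks described here are those that lie around 8 genes for transcription factors of differentiated lineages: Cdx2, Eomes, Hand1, Gata4, Gata6, Sox17, T and Pax6. A peak was taken as a member when its summit, the point of highest tag density, lay inside a window of 90 to 140 kb set around the gene on mouse build mm9. The 8 windows covered 850 kb and held 11 peaks, out of 33783 in the list called on the sWGA library. These genes are known as regulators that undifferentiated embryonic stem cells keep largely off, but the series holds no expression data, so their silence in these cells was not tested.

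The series maps chromatin of ZHBTc4 F-Oct4 cells, mouse embryonic stem cells with Flag-tagged Oct4 (the product of Pou5f1), after a sequential immunoprecipitation. As background, ZHBTc4 cells lack working endogenous copies of Pou5f1 and live on an Oct4 transgene that tetracycline turns off. Which promoter drives the Flag-tagged Oct4 was not determined here. Both groups went through an anti-Flag precipitation, and both were released from the second step with 0.5 M N-acetylglucosamine. In the sWGA group the second step used succinylated wheat germ agglutinin, a lectin that binds N-acetylglucosamine. In the control group it used beads that the labels call IgG in one place and agarose in another, while the title calls the sample an input. There was 1 library per group, with 6129874 sWGA tags and 78351 control tags after filtering, so no value below has a replicate error and no p-value between the groups can be given.

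Oct4 is a POU-domain factor that binds an octamer of bases, often beside a site for Sox2, and holds embryonic stem cells in the pluripotent state. It is known to oppose Cdx2, and loss of Oct4 turns embryonic stem cells towards trophectoderm, the outer layer of the blastocyst that forms the placenta. O-GlcNAc, the sugar that the lectin reads, is set on nuclear proteins by the enzyme Ogt. Cross-linked chromatin was used, so a peak marks DNA recovered through both steps and does not show which protein carried the sugar.

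The promoters of 3 members with listed peaks are shown because the octamer is the base sequence that Oct4 is known to recognise. They are the 250 bases before the gene start from RefSeq on build GRCm38.p6, on the strand of the gene, for Cdx2 (chr5:147307250-147307499, minus strand), Eomes (chr9:118477939-118478188, plus strand) and T (chr17:8434173-8434422, plus strand). Capitals mark the octamer ATGCAAAT, searched on both strands.
Cdx2: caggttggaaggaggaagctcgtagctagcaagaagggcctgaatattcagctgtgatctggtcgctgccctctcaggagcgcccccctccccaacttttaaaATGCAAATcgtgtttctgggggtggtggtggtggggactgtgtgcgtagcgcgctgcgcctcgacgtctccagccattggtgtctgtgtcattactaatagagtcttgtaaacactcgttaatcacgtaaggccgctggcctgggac
Eomes: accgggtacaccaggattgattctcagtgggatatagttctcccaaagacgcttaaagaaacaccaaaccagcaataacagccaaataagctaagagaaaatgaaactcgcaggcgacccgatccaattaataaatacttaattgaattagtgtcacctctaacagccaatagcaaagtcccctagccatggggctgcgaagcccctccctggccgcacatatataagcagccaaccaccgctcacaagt
T: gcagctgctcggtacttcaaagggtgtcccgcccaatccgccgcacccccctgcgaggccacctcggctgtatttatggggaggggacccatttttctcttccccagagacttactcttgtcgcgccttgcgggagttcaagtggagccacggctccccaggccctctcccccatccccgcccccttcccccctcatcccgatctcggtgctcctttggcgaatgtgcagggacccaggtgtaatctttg
The Cdx2 promoter held 1 octamer, which ended 139 bases before the gene start. Of 32851 promoters in the table, 526 (1.60%) held one in these 250 bases. For the members, 5 promoters of 4 of the 8 genes were examined, and of these 5 only the Cdx2 promoter held an octamer. The promoters of the other genes were left out of this count, so whether they hold an octamer is not given. The match is a description of the letters and not a binding site. The peaks are given on mm9, so how far each lay from these promoters was not determined, and the bases under the peaks are not shown.

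The 11 peaks were unevenly spread over the lineages. The 3 trophectoderm genes held 6 peaks in 280 kb, T held 4 in 100 kb, Pax6 held 1 in 120 kb, and the 3 endoderm genes Gata4, Gata6 and Sox17 held 0 in 350 kb. A window therefore had a peak at 5 of 8 loci. Across the autosomes, adjoining tiles of the same widths held a summit in 61.7% (90 kb), 65.3% (100 kb), 70.9% (120 kb) and 75.4% (140 kb) of cases, so the share of windows with a peak is near the background and is no result about these genes. The density over the 8 windows was 12.9 peaks per Mb (exact Poisson 95% interval 6.46 to 23.2), close to the 13.8 per Mb of the autosomes.

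**Figure D1:**
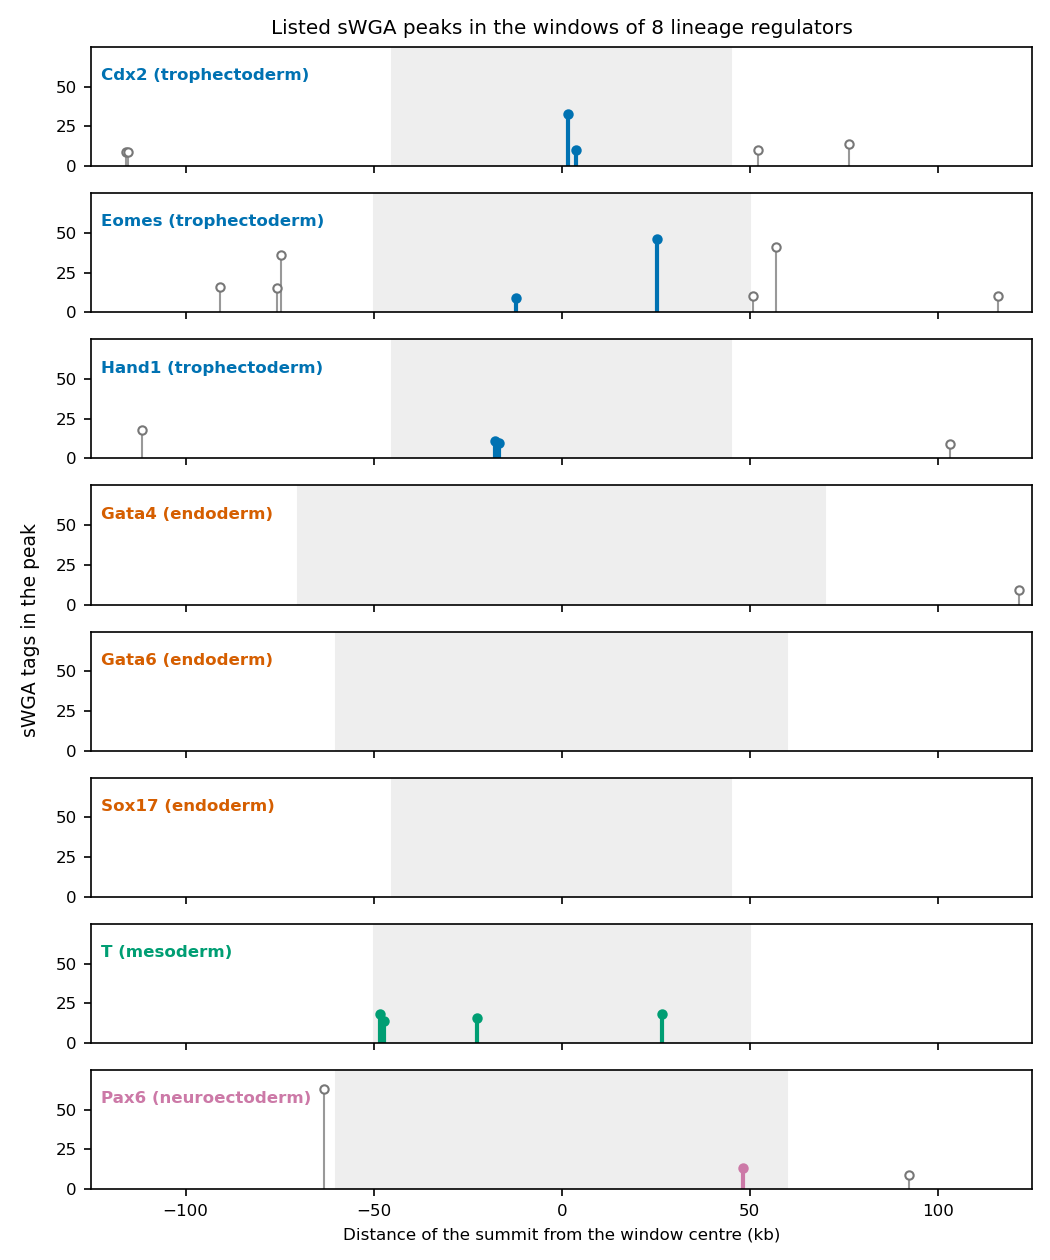
Listed sWGA peaks around the 8 genes. The horizontal axis gives the distance of each summit from the window centre in kb and the vertical axis the sWGA tags of the peak; grey bands are the windows, filled circles the 11 member peaks and open circles listed peaks outside the windows. The Gata4, Gata6 and Sox17 windows are empty, while the Eomes window holds the strongest member, with 46 tags.

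Cdx2, the homeodomain factor that sets up trophectoderm, held 2 peaks near the centre of its window. The stronger, at chr5:148115901-148117028, was 1128 bp long and held 33 sWGA tags, and only 6.15% of all sWGA peaks held as many. It was the longest of the 11 members. Its deposited fold, the tag height at the summit over the caller's expected height, was 31.49, which is 16 tags. Its deposited score was 207.18, on the caller's scale where each factor of 10 in the p-value adds 10. The weaker Cdx2 peak, at chr5:148118778-148119137, lay 2196 bp away from summit to summit. It held 10 tags, a number that 84.0% of the list reached or passed. Its fold was 11.81, which 90.6% of the list reached or passed. In RefSeq the protein-coding neighbours of Cdx2 are Pdx1, a homeodomain factor of the pancreas, and Urad. No distance to any of these genes was computed.

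Eomes, a T-box factor needed in trophoblast and in early mesoderm and endoderm, had the strongest of the member peaks by tags, fold and score. At chr9:118415184-118415668 the peak held 46 tags in 485 bp, with a fold of 86.60 and a score of 506.25. It ranked 820 by tags and 182 by fold in the list, and a peak of at least 46 tags stood in 3.37% of 100 kb tiles. By the deposited false discovery rate (FDR) the order differed. This peak had the highest FDR of the members, at the upper limit of the percent scale. The stronger Cdx2 peak came next with 24.5%, and the rest had 2.26 to 15.36%. The FDR was not used to rank peaks here. The tags were narrowly stacked, with 44 of the 46 (95.7%) at the summit. Among 667 peaks of 40 to 52 tags the median share at the summit was 63.4%, the median length was 684 bp, and 4 peaks (0.600%) reached the share of the Eomes peak. This measure was chosen after the peak was seen. Up to 2 sWGA tags at the same position were kept, and the part of repeated tags in this stack was not tested.

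The other Eomes peak, at chr9:118377825-118378032, was the shortest of the members and had the fewest tags, 9 in 208 bp, at a fold of 17.71 and a score of 112.54. All 9 tags stood at its summit, and 9 is the fewest of any listed peak. The ground around the Eomes window was also rich in peaks. A further 5 summits lay within 50 kb of its edges, of which one with 41 tags (chr9:118446654-118447454) was 6.96 kb outside and one with 36 tags (chr9:118315053-118315797) was 24.7 kb outside. The nearest, with 10 tags, missed the window by 0.741 kb.

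Hand1, a basic helix-loop-helix factor of trophoblast giant cells and heart, held only weak peaks. One, at chr11:57626943-57627422, held 11 tags at a fold of 15.75 and a score of 69.46. The other, at chr11:57628125-57628531, held 10 tags at a fold of 11.81 and a score of 67.53. Their summits were 989 bp apart. Neither reached a score of 100, which 33.9% of the list did. No further peak lay within 50 kb of the Hand1 window. The trophectoderm genes thus carried 2 peaks each, a number that 35.6% of 100 kb tiles reached or passed. Their strongest peaks ranged from 11 tags at Hand1 to 33 at Cdx2 and 46 at Eomes.

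T, the T-box factor Brachyury of the primitive streak and early mesoderm, had the most peaks of the 8 genes in the windows as set. Its 4 peaks had a narrow range of 14 to 18 tags and of 19.68 to 31.49 in fold, and all 4 passed a score of 100. The peak at chr17:8607264-8607542 had the highest score of these, 160.98, with all 16 of its tags at the summit. The peak at chr17:8656251-8656907 was the broadest, with 18 tags in 657 bp. A pair at chr17:8581264-8581734, with 18 tags, and chr17:8582434-8582760, with 14 tags, had summits 1036 bp apart.

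Placement of the T window decides part of that count. The pair lay 1.59 and 2.63 kb inside the window's edge, and T kept 2 peaks, as many as Cdx2, Eomes and Hand1, when the windows were set to 80 kb around their centres. With windows widened by 50 kb on each side Eomes had 7 peaks and T had 4. Of the 100 kb tiles, 8.94% held at least 4 summits. The next listed peaks lay 76.1 kb before the window and 499 kb after it, so the 4 peaks stood apart from others. The RefSeq neighbours of T are T2 and Pde10a.

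Pax6, a paired-box factor of the eye and the neural tube, had 1 peak, near one edge of its window. At chr2:105567987-105568377 it held 13 tags at a fold of 5.77 and a score of 53.73, just above the caller's limit of 50. Of the whole list, 98.2% scored at least as high. It was the only member with a local background. Its fold was 7 whole tags over the expectation of 1.21 tags that 1 control tag within 10 kb sets, whereas the other 10 members had folds in whole tags over the genome-wide expectation of 0.508 tags, as 91.2% of all peaks did.

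A far stronger peak lay just outside the Pax6 window. At chr2:105456208-105456942 it held 63 tags, more than any member, at a fold of 34.63 and a score of 429.40, and its summit missed the window by 3.25 kb. With windows widened by 50 kb on each side Pax6 had 3 peaks. The count and the strength given for Pax6 therefore rest on where the window ends. Its RefSeq neighbours are Rcn1 and Elp4.

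The endoderm genes had no listed peak. Gata4 and Gata6, zinc finger factors of primitive endoderm and later of heart and gut, and Sox17, an HMG-box factor of primitive and definitive endoderm, would together hold 4.82 peaks at the density of the autosomes. The density in their windows was 0 to 0.766 times that of the other autosomal sequence (exact 95% interval). Set against the other 5 windows it was 0 to 0.569 times, or 0 to 0.837 times with peaks within 5 kb counted as 1. These intervals cover counting error and treat peaks as independent, which neighbouring peaks are not. The grouping by lineage was made with earlier results of these data known.

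An empty window was not rare by itself. Among autosomal tiles of the same width, 24.6% were empty at 140 kb, the width of the Gata4 window. At 120 kb, as for Gata6, 29.1% were empty, and at 90 kb, as for Sox17, 38.3% were. With 50 kb added on each side the 3 windows were still empty, where 12% of tiles were at 240 kb (Gata4), 13.5% at 220 kb (Gata6) and 17% at 190 kb (Sox17).

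The stretches without a peak differed in length. From the last summit before to the first summit after, Gata4 lay in 269 kb, Sox17 in 424 kb and Gata6 in 970 kb. The median distance between neighbouring autosomal summits was 38.3 kb. An empty window of 90 to 140 kb must lie in a longer distance than that, so the median is no check of these stretches. Only 36 of 33181 such distances were as long as that around Gata6, and they made up 2.63% of the autosomal span. Distances at least as long as that around Sox17 made up 11.9% of the span, and for Gata4 the share was 26.3%. The peaks that bound these stretches held 9 to 15 tags. The one before Gata4 was the strongest, with 15 tags and a score of 111.79, and the other 5 scored below 100.

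**Figure D2:**
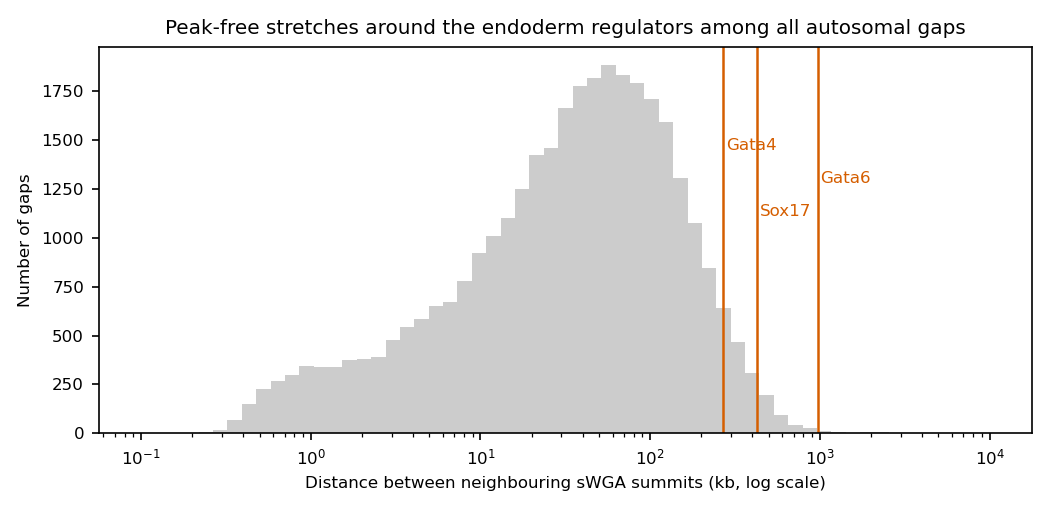
Distances between neighbouring sWGA summits on the autosomes. The horizontal axis gives the distance in kb on a log scale, the vertical axis the number of distances per bin, and the lines mark the peak-free stretches that contain Gata4 (269 kb), Sox17 (424 kb) and Gata6 (970 kb). All 3 lie to the right of the median of 38.3 kb, as any empty window of 90 to 140 kb must.

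Absence from the list is not absence of tags. The lists give no tags outside called regions, and a peak needed at least 9 tags. Spread evenly, 459 sWGA tags and 5.87 control tags would fall in the Gata4 window. A single control tag weighed 78.2 sWGA tags in the caller. Scored again as if 1 control tag lay within 10 kb, the weaker Cdx2 peak and both Hand1 peaks fell below a score of 50. The Pax6 peak already had that background. Of the 8 members with the genome-wide background and a length of at least 310 bp, 5 kept a score of 50, beside 34.2% of all such peaks. Whether control tags lay near Gata4, Gata6 or Sox17 was not tested. The control list held 0 regions in the 8 windows, out of 750 in all. The listed span of the autosomes alone is 2412 Mb, so 0 in 850 kb is no result about these windows. The nearest control region was 104 kb from the Pax6 window, 200 kb from the Sox17 window and at least 926 kb from each of the others.

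The median member held more tags than the median of the list. It was 14 tags and a score of 116.41, beside 11 tags and 79.96 over all sWGA peaks, and the median length was 407 bp beside 419 bp. A score of at least 100 was reached by 7 of 11 members, beside 33.9% of all peaks, and at least 18 tags by 4 of 11, beside 21.4%. The 7 lay at Cdx2, Eomes and T alone, and these 3 of 8 loci were also the ones with a peak of at least 18 tags. A peak of such a score stood in 32.1% of 100 kb tiles and one of at least 18 tags in 22% of them. Counting only peaks with a score of at least 100, the density in the 8 windows was 1.77 times that of the other autosomal sequence, with an exact 95% interval of 0.710 to 3.64 that includes 1. With 11 members the share of strong peaks rests on few loci, 4 of the 7 being at T.

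**Figure D3:**
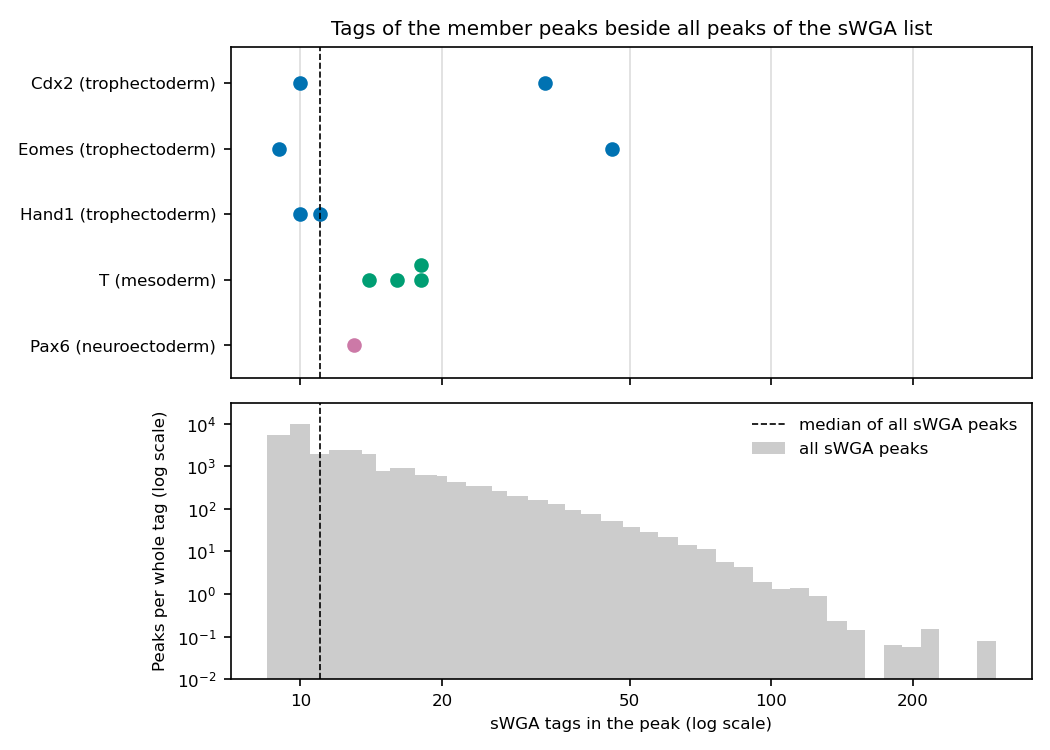
Tags per peak on a log scale. The upper panel has 1 point for each of the 11 members by gene, and the lower panel shows all 33783 sWGA peaks as the number per whole tag, on a log scale; the dashed line is their median of 11 tags. Cdx2 and Eomes each have 1 peak far to the right and 1 below the median, whereas all 4 T peaks lie above it.

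Another summit lay within 5 kb of 6 of the 11 members, namely both peaks at Cdx2, both at Hand1 and the pair at T, beside 25.9% of all peaks and 6 of 13 peaks in windows around Pou5f1, Sox2 and Nanog. The 6 members are 3 pairs, so the count rests on 3 places. Joined over 5 kb the 11 peaks made 8 sites, 3 at T, 2 at Eomes and 1 each at Cdx2, Hand1 and Pax6. Tags at the summit made up a median of 72.7% of a member's tags, the same as over the list.

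Genes that are active in embryonic stem cells gave a point of comparison. Windows of similar width around Pou5f1, Sox2 and Nanog, the core factors of pluripotency, held 13 sWGA peaks in 290 kb, or 44.8 per Mb (23.9 to 76.7), beside 12.9 per Mb (6.46 to 23.2) at the lineage genes. Nanog alone held 9 of the 13. At a score of at least 100 the counts were 4 and 7, or 13.8 per Mb (3.76 to 35.3) at the pluripotency genes and 8.24 per Mb (3.31 to 16.97) at the lineage genes, and these intervals overlap. Sox2 held 3 peaks and Pou5f1 held 1, within the range of 0 to 4 at the lineage genes. The strongest pluripotency peak, at Nanog, held 35 tags, fewer than the 46 at Eomes and more than the 33 at Cdx2. The deposited scores of the strongest peaks at Sox2 (165.94) and Nanog (148.42) rest on a background of 1 control tag within 10 kb and are not on the scale of the Cdx2 and Eomes scores. Scored again with the genome-wide background they were 270.0 at Sox2 and 268 at Nanog, above the 207 at Cdx2 and below the 506 at Eomes. The median was 12 tags at the pluripotency loci and 14 at the lineage genes.

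The control library bears on that comparison. The windows of Pou5f1 and Sox2 held 5 control regions with 45 control tags, 3 of the regions at Pou5f1. Those of Nanog and of the 8 lineage genes held 0. With only 750 control regions in the whole list, that 0 is no result about these windows. A control tag raises the caller's background near it. The part of the 5 regions in the counts at Pou5f1 and Sox2 was not tested.

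**Figure D4:**
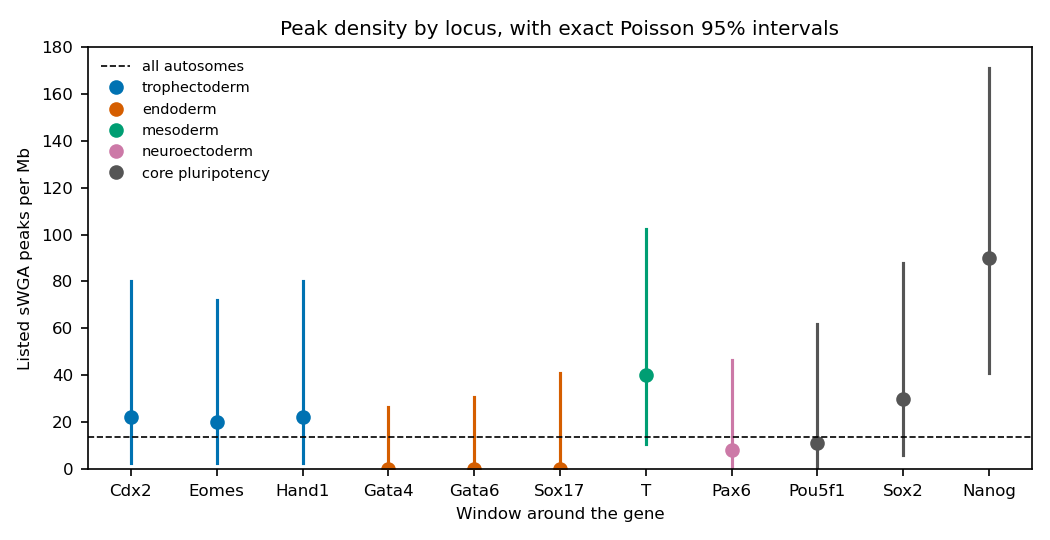
Listed sWGA peaks per Mb in the window of each gene. Points are densities, bars are exact Poisson 95% intervals that cover counting error only, colours are lineages and the dashed line is the autosomal density of 13.8 per Mb. The interval of each single lineage gene includes the dashed line, and that of Nanog, at 90.0 per Mb, lies wholly above it.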

How the data were processed

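Per the file headers, the authors' caller was MACS 1.4.1, run with a fragment length of 155 bp, an effective genome of 1870 Mb and local background windows of 1 and 10 kb, a p limit of 1e-05 and the smaller library scaled up. Positions are on mm9, per the submitters' processing notes. The aligner is not given in the sources used here. Each list sets 1 library against the other. Deposited counts are unscaled tags in a region, and the deposited fold divides the summit height by the expected height as a ratio. The deposited score is −log10 of the p-value multiplied by 10. The deposited FDR, a percent, was not used to choose or rank peaks. Tag depth was 6129874 for sWGA and 78351 for the control after filtering, from 16695056 and 366466 tags before it. Up to 2 tags at the same position were kept for sWGA and 1 for the control. Both libraries had 18 PCR cycles.

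Windows followed fixed positions; those of Pou5f1, Sox2 and Nanog were set from known mm9 gene positions, not from a file. All 8 genes were named, with every peak where a window held 5 or fewer. Members, windows and lists were chosen with earlier results of these data known. Densities are per listed span of the autosomes. Intervals are exact Poisson for counts and Clopper-Pearson for ratios. Folds within 0.01 tags of a whole number were read as whole. Scores were recomputed as Poisson tails (within 0.02 for 97.6% of peaks of at least 310 bp). Shorter peaks used the tag number that returns their score over 310 bp. Software was scipy 1.17.1, pandas 2.3.3, numpy 2.4.6 and matplotlib 3.10.9 under Python 3.11.15, and the density and window steps were tested on simulated data. Alternatives were other scores, tags, folds, window sizes and overlap rules.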

Additional observations from a re-analysis of the deposited data

How the results depend on the processing

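No paired analysis was possible because there was only 1 library on either side, which also leaves nothing to drop in turn. At a score of 100 or more the 11 member peaks became 7, at 3 loci in place of 5, with 3 at the trophectoderm genes and 0 at Pax6, a density ratio of 1.77 in place of 0.940, and 4 pluripotency peaks in place of 13. With at least 18 tags 4 members were left, at 3 loci, of which 2 were at trophectoderm genes, 2 at T and 0 at Pax6, with a median of 25.5 tags in place of 14, and 2 pluripotency peaks were left. A fold of at least 10 left 0 peaks at Pax6. Windows widened by 50 kb gave 20 peaks, with 13 at the trophectoderm genes and 3 at Pax6, and 23 at the pluripotency genes. Windows of 80 kb left 2 peaks at T and 0 at Pax6. Of the alternatives added after seeing the data, leaving out peaks within 5 kb of an edge left 2 at T, and scoring with 1 control tag within 10 kb left 3 at the trophectoderm genes. The count of 0 at the endoderm genes was also 0 with widened windows and with any overlap; the other alternatives could only remove peaks and are no check of it. Fewer peaks under a stricter limit follow from the limit itself. The changes with window size follow from where the listed summits lie against the window edges. Why the summits lie there was not tested. The shallow control and the single library of each group limit every value.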
